A study of Mus musculus with 36 samples.

Results

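The pentose phosphate pathway was followed through the transcripts of its 9 enzymes, G6pdx, H6pd, Pgls, Pgd, Rpia, Rpe, Tkt, Taldo1 and Shpk, in primary mouse hepatocytes that overexpressed glucokinase (GK), its regulatory protein (GKRP) or both. These are the named enzymes of the pathway. They are 9 of the 52230 genes with an annotated transcript in the tables, and all 9 were among the 12177 genes with enough reads to be tested.

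The pathway starts from glucose 6-phosphate, the product of GK. Its oxidative branch makes NADPH, which the liver uses to build fatty acids and cholesterol and to keep glutathione reduced, and ribulose 5-phosphate. Its non-oxidative branch interconverts sugar phosphates and joins the pathway to ribose 5-phosphate for nucleotides on one side and to fructose 6-phosphate and glyceraldehyde 3-phosphate of glycolysis on the other. Xylulose 5-phosphate, a sugar of this branch, has long been proposed as a signal of glucose abundance in liver.

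RNA was sequenced from 36 cultures of hepatocytes of 3 female mice aged 14 weeks of the GCKR-P446L-EMI-B6N line. Mice 1 and 2 were labelled Gckr-446L and mouse 3 Gckr-446P/L, and the submitters describe the cells of all 3 as lacking GKRP. There were 10 conditions in each mouse. Untreated cultures received no vector, 4 conditions received an adenoviral vector for human GKRP-446P (hP), human GKRP-446L (hL), mouse GKRP-446P (mP) or mouse GKRP-446L (mL), 1 received a vector for GK alone, and 4 received GK with each of these GKRP vectors (GK+hP, GK+hL, GK+mP, GK+mL). All cultures, untreated ones included, were kept for 24 h at 5 mM glucose with 10 nM insulin and 10 nM dexamethasone and then for 4 h at 25 mM glucose. The untreated and GK conditions had 2 cultures per mouse, which were summed, so that each condition rested on 3 mice and the series on 30 samples. No condition received an empty vector, so a vector and the protein it carries cannot be told apart in a comparison with untreated hepatocytes. The same holds for every comparison of cultures that differ in the number of vectors. GK with a GKRP vector against GK alone is one of them. In these bulk samples fewer cells of a type and less RNA per cell cannot be told apart either.

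Libraries held between 3924674 and 10046158 reads. The GK vector carries a rat cDNA. CPM are reads of a gene scaled by the total of its library after adjustment by edgeR's TMM factor. Gckr, the gene for GKRP, was at 8938 to 23270 CPM in the 12 libraries with a mouse GKRP vector. It was at 37.1 to 118.5 CPM in 23 of the other 24, those with a human GKRP vector included, so that Gckr reads do not check the human vectors. One of the 2 GK cultures of mouse 3 stood apart with 1462 CPM of Gckr, and it enters every comparison with GK alone. Estimates without it are given for several members in the main comparisons with GK alone. The 7 hepatocyte markers summed to 69036 to 133847 CPM per sample. The 10 macrophage markers summed to 252 to 360.2 CPM and the 7 endothelial markers to 55.6 to 122.5 CPM. The 7 stellate markers, of which 3 were tested, summed to 16.5 to 58.3 CPM. The 5 cholangiocyte markers, of which 2 were tested, summed to 15.4 to 244.6 CPM. No marker of these 5 lists passed the test for GK against the 5 combined groups or untreated, or for the averaged GKRP vectors, at endogenous GK or with GK.

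Per length the 9 transcripts spanned about 2 orders of magnitude. Levels of different genes were compared as CPM per kilobase of transcript (CPM/kb). In untreated hepatocytes Pgd was at 203 ± 49.7 CPM/kb (SD, n = 3), Tkt at 188 ± 28.1, H6pd at 155 ± 13.1 and Taldo1 at 99.6 ± 30.2. Pgls followed at 19.5 ± 5.03 CPM/kb, Rpe at 10.7 ± 1.35 and G6pdx at 8.95 ± 3.12. Rpia, at 4.08 ± 1.22 CPM/kb, and Shpk, at 1.86 ± 0.288, were the lowest. The ratio of a transcript to the next below it was 5.10 between Taldo1 and Pgls, the widest step. The order of Pgd and Tkt, and that of Rpe and G6pdx, lay within the spread between mice. G6pdx, which encodes the enzyme that commits glucose 6-phosphate to the cytosolic pathway, was therefore more than an order of magnitude below Pgd, the next dehydrogenase of the branch, whereas H6pd, its counterpart in the endoplasmic reticulum, was close to Pgd.

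**Figure D1:**
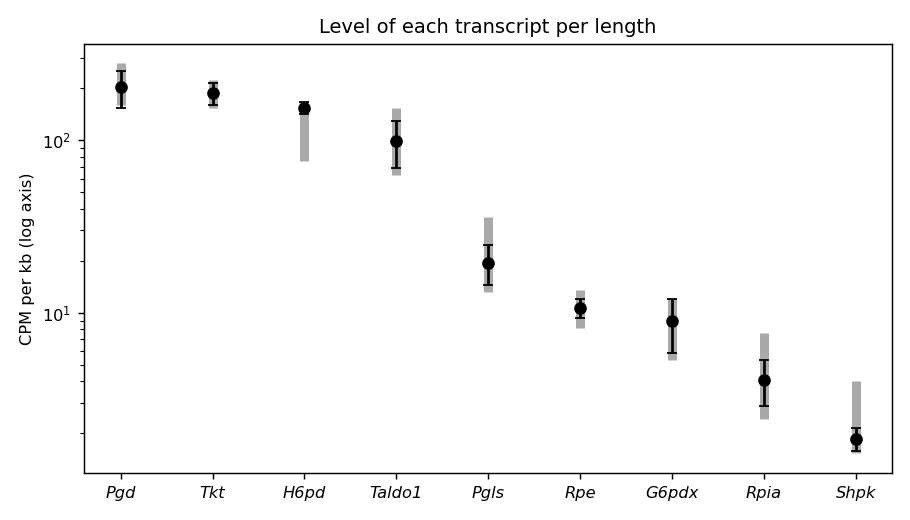
Level of the 9 pathway transcripts in CPM per kb on a log axis. Points and error bars are the mean and SD of 3 untreated mice and grey bars span all 30 samples, and the step from Taldo1 (99.6 CPM/kb) to Pgls (19.5 CPM/kb) divides an abundant from a scarce group.

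The reads behind these levels differed. Pgd, Tkt and H6pd had 1482 to 8664 reads per sample, Taldo1 376 to 1803, and Pgls, Rpe and G6pdx 59 to 402. Rpia had 25 to 170 reads and Shpk 21 to 141, with medians of 58 and 39.

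The promoter windows of the members (250 bases before and 50 after the start, RefSeq, build GRCm38.p6) were searched on both strands for 5 short motifs. All 9 genes matched, with 2 windows for Pgd. CACGTG, the E-box bound by basic helix-loop-helix factors, of which ChREBP is the glucose-responsive one in liver, was in 0 of these 10 windows and in 7.15% of all 32851. TGACNNNGC, the core of the antioxidant response element, was in the G6pdx window and, of the 2 windows of Pgd, only in the downstream one. It was in 12.4% of all windows. Whether the downstream Pgd window is a promoter was not tested. GGGCGG, the GC box, was in windows of 8 of the 9 genes, H6pd being the exception, and in 35.7% of all. CCAAT was in windows of H6pd, Pgd, Rpe, Shpk and Taldo1 (37.4% of all), and TATAAA was in none of the 10 (13.6% of all). A match here is a run of letters and not a known site. The absence of an exact match in a window this short does not show that a factor does not bind the gene. The G6pdx window and the downstream Pgd window are shown because they hold the antioxidant core, which is in capitals. The G6pdx window is chrX:74428831-74429130 on the minus strand, where the match reads on the opposite strand, and the Pgd window is the downstream one of 2, chr4:149166033-149166332 on the minus strand, where the match lies after the start.
G6pdx: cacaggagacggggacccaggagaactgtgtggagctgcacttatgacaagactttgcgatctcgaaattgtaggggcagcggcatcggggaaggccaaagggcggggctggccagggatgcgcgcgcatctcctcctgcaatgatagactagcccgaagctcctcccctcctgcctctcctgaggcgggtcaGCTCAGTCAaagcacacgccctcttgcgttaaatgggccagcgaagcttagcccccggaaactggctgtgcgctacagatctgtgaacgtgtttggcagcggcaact
Pgd: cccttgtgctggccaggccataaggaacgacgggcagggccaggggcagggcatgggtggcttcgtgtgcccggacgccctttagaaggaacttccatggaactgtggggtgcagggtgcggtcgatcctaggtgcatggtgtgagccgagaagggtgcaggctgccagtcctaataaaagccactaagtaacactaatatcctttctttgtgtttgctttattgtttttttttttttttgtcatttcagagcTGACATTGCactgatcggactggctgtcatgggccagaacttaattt
The windows of Tkt (chr14:30548881-30549180, plus strand), Rpia (chr6:70792126-70792425, minus strand) and Shpk (chr11:73199232-73199531, plus strand) are shown with the GC box in capitals on either strand. They were chosen because these 3 genes had the largest ratios of estimate to error with GK in edgeR without a term for the mouse. With that term the order differed, and Pgd ranked above them against the 5 conditions of endogenous GK.
Tkt: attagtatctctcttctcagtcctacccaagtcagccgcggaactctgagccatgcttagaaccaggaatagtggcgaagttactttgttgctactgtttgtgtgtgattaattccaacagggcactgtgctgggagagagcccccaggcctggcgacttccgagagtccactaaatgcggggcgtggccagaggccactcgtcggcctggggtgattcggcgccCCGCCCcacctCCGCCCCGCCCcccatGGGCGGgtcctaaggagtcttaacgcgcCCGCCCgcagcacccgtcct
Rpia: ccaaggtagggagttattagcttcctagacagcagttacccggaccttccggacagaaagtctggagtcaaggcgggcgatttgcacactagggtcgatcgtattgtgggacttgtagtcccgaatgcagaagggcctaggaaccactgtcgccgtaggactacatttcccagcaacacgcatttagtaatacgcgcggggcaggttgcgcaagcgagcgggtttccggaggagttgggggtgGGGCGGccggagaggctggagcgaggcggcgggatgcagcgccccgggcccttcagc
Shpk: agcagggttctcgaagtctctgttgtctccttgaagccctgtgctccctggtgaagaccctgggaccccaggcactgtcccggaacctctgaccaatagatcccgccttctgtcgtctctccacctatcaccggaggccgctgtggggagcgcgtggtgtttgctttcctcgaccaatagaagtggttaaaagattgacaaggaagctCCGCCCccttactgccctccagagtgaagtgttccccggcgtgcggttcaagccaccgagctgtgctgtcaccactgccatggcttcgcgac
Tkt held 5 matches, of which 2 share a base, and Rpia and Shpk 1 each. Of the other members Rpe held 2.

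**Figure D2:**
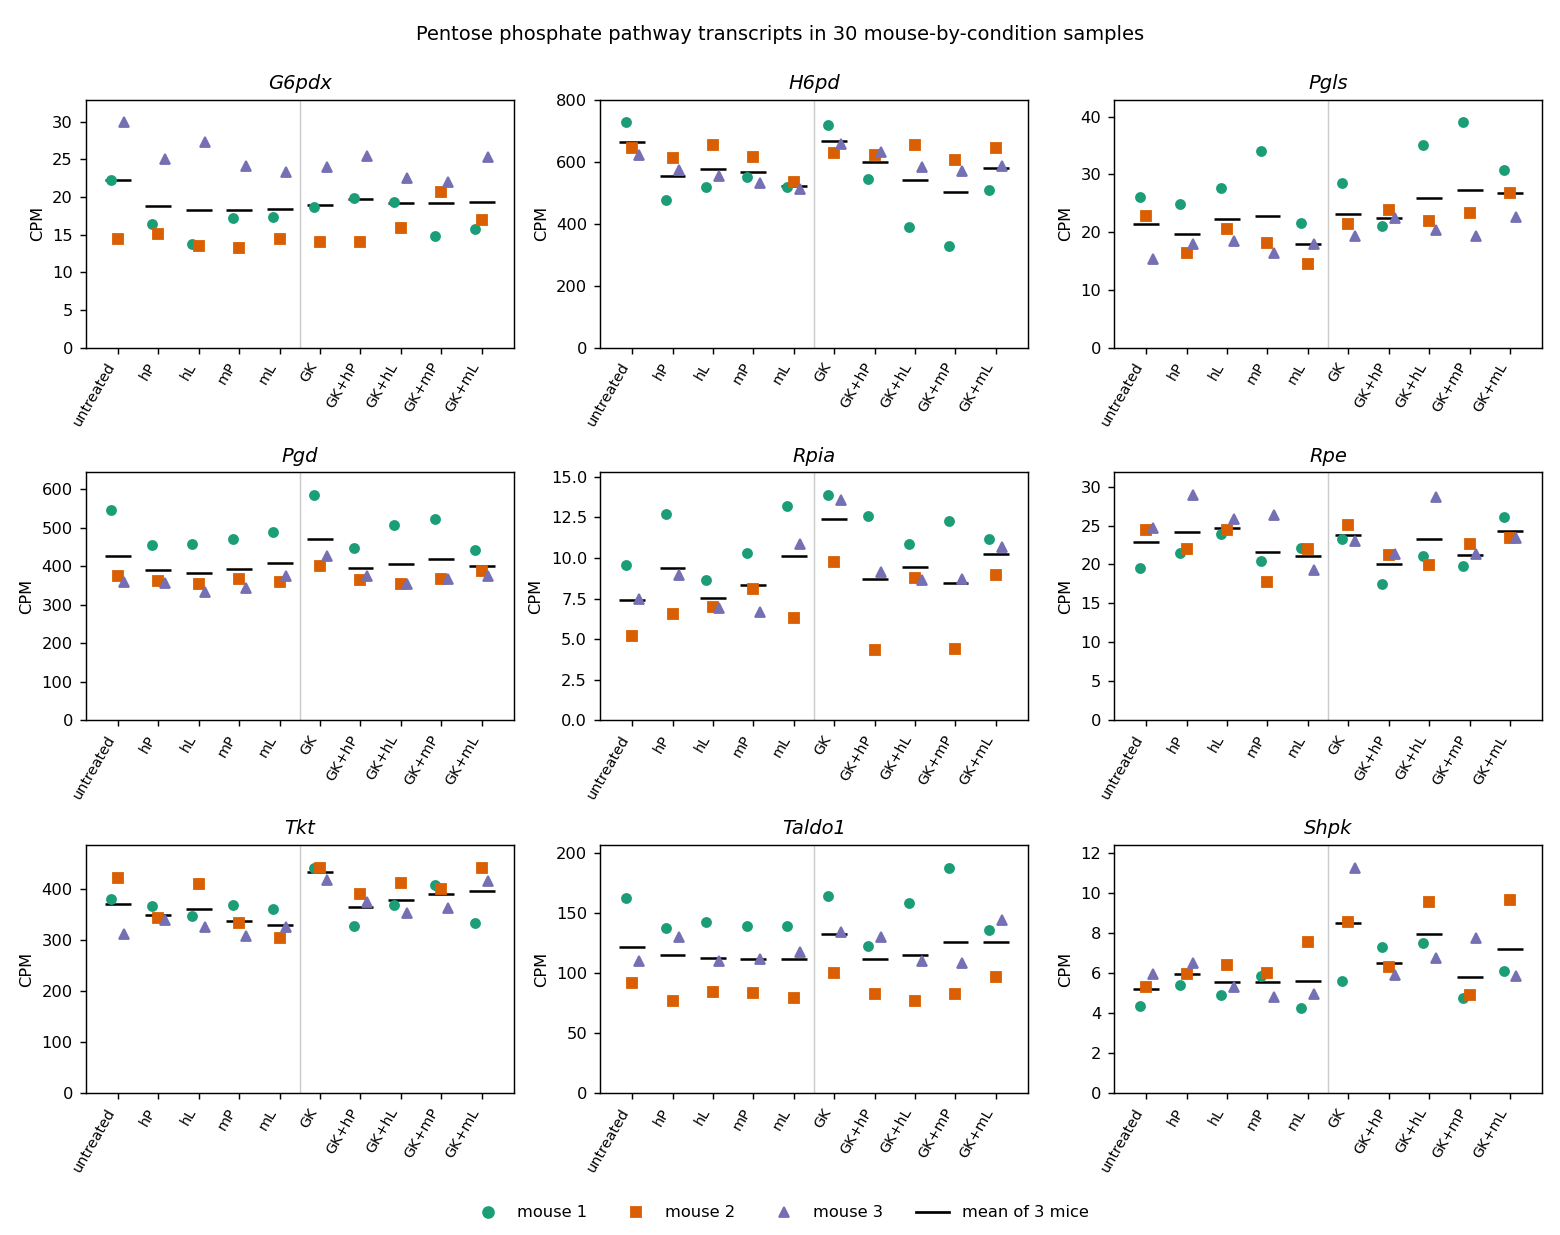
Level of each pathway transcript in CPM (linear axes from 0) in the 10 conditions. Each symbol is 1 mouse, the line is the mean of 3 mice and the grey line parts conditions without and with the GK vector. Tkt, Pgd and Rpia were highest with GK alone in each mouse, mouse 1 was the highest for Pgd, mouse 2 the lowest for Taldo1 and mouse 3 the highest for G6pdx in all 10 conditions.

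The first comparison asked whether GK overexpression changed the transcripts, and set GK alone against the 5 conditions of endogenous GK combined. These hold 15 samples from the same 3 mice. None of the 9 transcripts passed the threshold, which was an adjusted p under 0.05 in edgeR's quasi-likelihood test with a fold of at least 1.3 or at most 0.7. Of all genes tested 0.427% passed. Of the 9 transcripts 8 were higher with GK, with a median log2 fold change of 0.21 against -0.01 over all genes, and 3 (Shpk, Tkt and Rpia) had an unadjusted p under 0.05. DESeq2 called 0 of the 9. Once the mouse was a term of the model, which uses the pairing of the cultures by animal, edgeR called 1 of the 9 (Shpk) and 242 genes in all (1.99%), and DESeq2 called 2 (Shpk and Rpia) and 364 genes in all (3.32% of the 10959 with an adjusted p). Without the GK culture that held Gckr reads the estimates were 0.51 for Shpk, 0.52 for Rpia, 0.32 for Tkt and 0.22 for Pgd, again with 0 of the 9 called.

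In the oxidative branch, G6pdx (chromosome X, 73449857 to 73472819 of GRCm39, minus strand) encodes glucose 6-phosphate dehydrogenase, which makes the first NADPH of the pathway. It was at 22.3, 14.5 and 29.96 CPM in untreated hepatocytes of mice 1, 2 and 3 and at 18.7, 14.03 and 24.0 CPM with GK. GK was the lower value in each mouse, but the groups overlapped widely because mouse 3 was high in every condition. Against untreated the log2 fold change was -0.23 (SE 0.32) and that against the 5 combined conditions -0.03 (SE 0.23, 95% interval -0.50 to 0.45, adjusted p = 1.00). Including the mouse narrowed the interval to -0.26 to 0.23, a fold between 0.834 and 1.17.

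H6pd (chromosome 4, 150055676 to 150093559, minus strand) encodes the hexose 6-phosphate dehydrogenase that supplies NADPH inside the endoplasmic reticulum. It was at 729.9, 645 and 623 CPM in untreated hepatocytes and at 719, 629.6 and 659 CPM with GK. The 2 groups lay in the same range, with a log2 fold change of 0.01 (SE 0.19). Against the 5 combined conditions it was 0.21 (SE 0.14, adjusted p = 0.854). The combined set holds the 12 samples with a GKRP vector, where H6pd was at 478 to 656 CPM.

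Pgls (chromosome 8, 72044202 to 72053768, plus strand) encodes the lactonase between the 2 dehydrogenase steps. It was at 26.03, 22.7 and 15.3 CPM untreated and at 28.5, 21.4 and 19.3 CPM with GK, which overlapped. The log2 fold change against the 5 combined conditions was 0.15 (SE 0.21).

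Pgd (chromosome 4, 149233246 to 149251228, minus strand) encodes 6-phosphogluconate dehydrogenase, which makes the second NADPH and releases carbon dioxide. It was at 546 CPM untreated and 585 with GK in mouse 1, 374 and 401 in mouse 2, and 358 and 426 in mouse 3. GK was above untreated in each mouse, although the value of mouse 1 without GK exceeded those of mice 2 and 3 with it. The log2 fold change against the 5 combined conditions was 0.23 (SE 0.15, adjusted p = 0.806). In the model with the mouse the estimate was also 0.23, with an SE of 0.05 and an adjusted p of 0.0216, but the fold, between 1.08 and 1.27 by its 95% interval, was under the threshold of 1.3.

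In the non-oxidative branch, Rpia (chromosome 6, 70742704 to 70769216, minus strand) encodes the isomerase that makes ribose 5-phosphate, the sugar of nucleotides. It was at 9.60, 5.17 and 7.45 CPM in untreated hepatocytes and at 13.9, 9.74 and 13.6 CPM with GK. The lowest GK value (9.74 CPM, mouse 2) was just above the highest untreated one (9.60 CPM, mouse 1). Each of the 6 GK cultures was above both untreated cultures of its mouse. The share of all genes separated in this way was not counted. Against untreated the estimate on the log2 scale was 0.74 (SE 0.35), a fold of 1.68 with a 95% interval of 1.02 to 2.75, but its adjusted p was 1.00. Against the 5 combined conditions, whose 15 samples reached 13.2 CPM in mouse 1 with mL, it was 0.53 (SE 0.25, adjusted p = 0.603, or 0.0598 with the mouse as a term). DESeq2 with the mouse as a term gave adjusted p values of 0.0162 and 0.00961 for these comparisons.

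Rpe (chromosome 1, 66739945 to 66765663, plus strand) encodes the epimerase that makes xylulose 5-phosphate. It was at 19.6, 24.4 and 24.7 CPM untreated and at 23.2, 25.1 and 23.0 CPM with GK, and the groups overlapped. The log2 fold change against the 5 combined conditions was 0.05 (SE 0.11), with a fold between 0.885 and 1.22 by its 95% interval.

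Tkt (chromosome 14, 30270156 to 30299612, plus strand) encodes transketolase, which moves 2-carbon units and links the branch to glycolysis. It was at 380.2, 422 and 311 CPM untreated and at 440.4, 441 and 417 CPM with GK. The GK values lay close together and each was the highest of the 10 conditions in its mouse, though in mouse 2 GK (440.9 CPM) barely exceeded GK+mL (440.3 CPM), and untreated mouse 2 was just above GK of mouse 3. Against the 5 combined conditions (304 to 422 CPM, median 343) the log2 fold change was 0.31 (SE 0.09), a fold of 1.24 with a 95% interval of 1.09 to 1.41 and an adjusted p of 0.152. The mouse term gave an adjusted p of 0.0315 and the fold stayed under 1.3. This direction held on the CPM scale. Against untreated alone it turned to -0.11 with transcript lengths as an offset, and the log2 ratio of means was -0.84 by the deposited TPM.

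Taldo1 (chromosome 7, 140972053 to 140982886, plus strand) encodes transaldolase, the 3-carbon partner of transketolase. It was at 163 CPM untreated and 164 with GK in mouse 1, at 91.7 and 99.8 in mouse 2, and at 109.9 and 134 in mouse 3. The differences between mice exceeded those between conditions. The log2 fold change against the 5 combined conditions was 0.21 (SE 0.23). In the model with the mouse it was 0.22 (SE 0.09, adjusted p = 0.205).

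Shpk (chromosome 11, 73089937 to 73115337, plus strand) encodes sedoheptulokinase, which phosphorylates sedoheptulose to the 7-carbon sugar phosphate of the non-oxidative branch. It was at 4.35, 5.32 and 5.96 CPM in untreated hepatocytes and at 5.63, 8.57 and 11.3 CPM with GK. GK was above untreated in each mouse, and the GK value of mouse 1 was below the untreated value of mouse 3. Against the 5 combined conditions (4.29 to 7.54 CPM, median 5.43) the log2 fold change was 0.61 (SE 0.18), a fold of 1.52 with a 95% interval of 1.19 to 1.95 and an adjusted p of 0.141. With the mouse as a term Shpk was at 0.60 (SE 0.16) with an adjusted p of 0.0367, which passed. The GK culture with reads of Gckr was also the one with the highest Shpk, at 12.6 CPM beside 9.76 CPM in the other GK culture of the same mouse. Without that culture the estimate was 0.50 (SE 0.15) and the adjusted p 0.0727 with the mouse as a term. Leaving out 1 mouse in that model gave 0.77 without mouse 1 (adjusted p = 0.0538), 0.66 without mouse 2 (0.181) and 0.34 without mouse 3 (0.6004), so the call was lost without any of the 3 and without that culture.

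Rpia, Tkt and Pgd, 3 of the 9, had their highest CPM of the 10 conditions with GK alone in each of the 3 mice. This pattern was noticed after the values were seen, and 1.54% of all genes tested showed it. Without the GK culture that held Gckr reads the same 3 members showed it, and 1.58% of all genes. GK alone was the condition with the highest mean for 6 of the 9 transcripts (H6pd, Pgd, Rpia, Tkt, Taldo1 and Shpk), and untreated was that with the lowest mean for Rpia and Shpk. For none of the 9 did any condition lie clear of the next one in the order of means, as the values of the 3 mice overlapped between all 9 pairs of neighbours. This rule ignores the pairing by mouse, and the share of all genes with the same overlap was not counted.

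**Figure D3:**
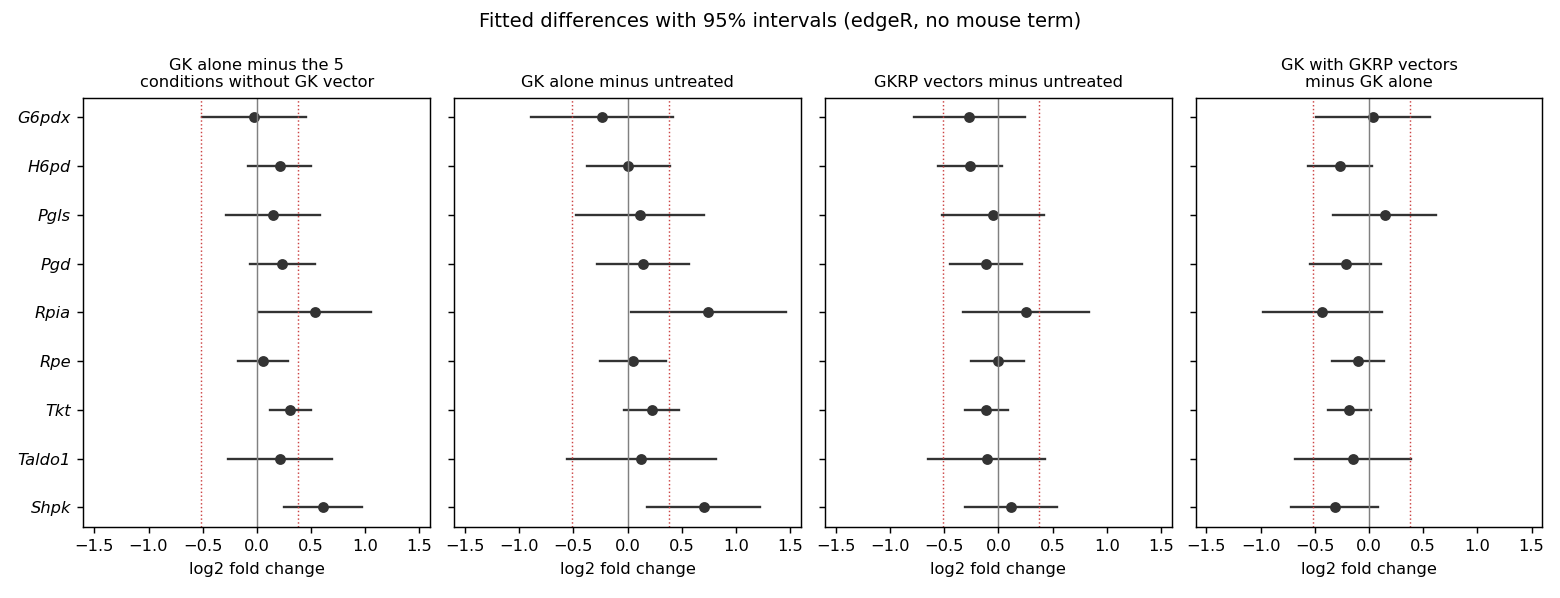
Log2 fold change of each transcript in 4 comparisons (panel titles), with 95% intervals, from edgeR without a mouse term. The solid line marks no difference and dotted lines mark the fold thresholds of 1.3 and 0.7. The intervals of Shpk, Tkt and Rpia lie above 0 in the first panel, and all intervals in the 2 panels for GKRP vectors span 0.

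Against untreated hepatocytes alone, with 3 mice on each side, 0 of the 9 transcripts passed for GK and 0.00821% of all genes did. Of the 9, 8 were higher with GK, with a median log2 fold change of 0.13 (0.00 over all genes), and Rpia and Shpk had an unadjusted p under 0.05. DESeq2 called 0 of the 9, and 1 (Rpia) with the mouse as a term, where it called 0.87% of all genes. Without the GK culture that held Gckr reads the estimates were 0.73 for Rpia, 0.60 for Shpk and 0.23 for Tkt. The estimate for Shpk was 0.70 (SE 0.25) and that for Tkt 0.22 (SE 0.12), which turned to -0.11 when transcript lengths entered the model as an offset. The 95% intervals of the fold were wide, from 0.540 to 1.34 for G6pdx, from 0.717 to 1.63 for Pgls and from 0.680 to 1.75 for Taldo1. These 2 comparisons share the GK and untreated samples and are not independent.

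GKRP binds GK in the nucleus and inhibits it, and the second set of comparisons asked what its vectors did at endogenous GK. With the 4 GKRP vectors averaged and set against untreated cells, 0 of the 9 transcripts passed, by edgeR or DESeq2, and 0 had an unadjusted p under 0.05, while 1.89% of all genes passed. The 9 log2 fold changes ran from -0.27 to 0.25 with a median of -0.11 (0.00 over all genes), and 7 were negative. H6pd was the clearest of the oxidative branch, at 478 to 656 CPM over the 12 samples with a GKRP vector against 623 to 729.9 CPM in untreated ones, with a log2 fold change of -0.26 (SE 0.14, adjusted p = 0.663). It was lower than untreated in 3 of 3 mice by the mean over the vectors, and mouse 2 with hL was above its untreated value. G6pdx had a log2 fold change of -0.27 (SE 0.25) and Pgd of -0.12 (SE 0.16), and both were also below untreated in 3 of 3 mice. Rpia had the highest, at 0.25 (SE 0.28), with 12.7, 6.53 and 8.94 CPM with hP and 13.2, 6.31 and 10.9 CPM with mL. For the single vectors against untreated, 0 of the 9 passed with hP (0.78% of all genes), hL (0.879%), mP (1.12%) or mL (1.05%), by edgeR or DESeq2, and none had an unadjusted p under 0.05.

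The third set asked whether a GKRP vector altered the transcripts in the presence of overexpressed GK. With the mean of the 4 vectors against GK alone, 0 of the 9 transcripts passed and 0 had an unadjusted p under 0.05, while 1.61% of all genes passed. DESeq2 also called 0. Of the 9 transcripts 7 were lower, with a median log2 fold change of -0.18 against 0.01 over all genes. This comparison shares its GK samples with the first, so the opposite signs in the 2 are not independent of each other. Without the GK culture that held Gckr reads the estimates were -0.42 for Rpia, -0.19 for Tkt, -0.20 for Pgd, -0.22 for Shpk and -0.27 for H6pd.

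Rpia with GK was at 13.9, 9.74 and 13.6 CPM and with GK and a GKRP vector at 4.36 to 12.6 CPM over 12 samples. Each of the 4 values of a mouse was below its GK value. The log2 fold change was -0.43 (SE 0.27, adjusted p = 0.710, or 0.0755 with the mouse as a term). The lowest values were those of mouse 2 with GK+hP (4.36 CPM) and GK+mP (4.39 CPM). By mouse the difference was -0.24, -0.62 and -0.54.

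Tkt was at 327 to 440.3 CPM over these 12 samples and below GK alone in every pair of the same mouse, with a log2 fold change of -0.18 (SE 0.10, adjusted p = 0.583). Pgd was at 353 to 523 CPM, also below GK alone in every pair of the same mouse, with a log2 fold change of -0.22 (SE 0.16). For Rpia, Tkt and Pgd these orders follow from GK alone being the highest of the 10 conditions in each mouse, and are not a second observation. With the mouse as a term the adjusted p of Pgd was 0.0145, and the estimate of -0.21 corresponded to a fold above the threshold of 0.7. Shpk was at 4.75 to 9.67 CPM, and its log2 fold change was -0.32 (SE 0.20, adjusted p = 0.708). Mouse 1 was higher and mice 2 and 3 lower than with GK alone, so the mice differed in direction for this gene.

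H6pd was at 719, 629.6 and 659 CPM with GK. Over the 12 samples that also had a GKRP vector it ranged from 327 to 657 CPM, with a log2 fold change of -0.27 (SE 0.14, adjusted p = 0.595). The difference was -0.73 in mouse 1, 0.01 in mouse 2 and -0.15 in mouse 3, and the estimate without mouse 1 was -0.07. The 2 lowest samples were mouse 1 with GK+mP (327 CPM) and with GK+hL (389 CPM). H6pd has the longest transcripts of the 9, with a read-weighted mean of 4305 bases, and the same GK+mP sample had the lowest ratio of long to short genes of all 30 (-0.82 on the log2 scale after removal of the mean of the mouse, against -0.26 for GK+hL of mouse 1). Over the 30 samples H6pd had a Pearson r of 0.61 with this ratio and Taldo1, one of the shortest, of -0.39. Without that 1 sample these were 0.31 and -0.11. The part of this ratio in the difference was not tested.

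Of the single vectors with GK against GK alone, GK+hP gave 0 of 9 calls (0.107% of all genes), GK+hL 0 (0.00821%), GK+mP 0 (0.271%) and GK+mL 0 (0.00821%), and DESeq2 gave 0 in each. An unadjusted p under 0.05 was seen for Tkt with GK+hP (log2 fold change -0.25, SE 0.12) and for Shpk (-0.55, SE 0.24) and H6pd (-0.41, SE 0.19) with GK+mP. Rpia was lower with each of the 4 vectors, from -0.27 with GK+mL to -0.55 with GK+mP.

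The effect of GK in the presence of GKRP, the mean of the 4 GK and GKRP conditions against the mean of the 4 GKRP conditions, gave 0 of 9 calls with edgeR and with DESeq2 and 0.0164% of all genes. Tkt had an estimate of 0.15 (SE 0.06) and Pgls of 0.31 (SE 0.15), both with an unadjusted p under 0.05 and adjusted p values of 0.723 and 0.751. Pgls was at 19.3 to 39.1 CPM over the 12 samples with both vectors and at 14.5 to 34.0 CPM over those with GKRP alone, and it was higher in 3 of 3 mice. Rpia had an estimate of 0.06 (SE 0.18) here beside the 0.74 without GKRP, and Shpk of 0.27 (SE 0.13) beside 0.70. The test of this difference itself, the interaction of GK and GKRP, gave -0.68 (SE 0.39) for Rpia and -0.43 (SE 0.28) for Shpk, negative in 3 of 3 mice for both, with adjusted p values of 1.00. Without the GK culture that held Gckr reads the estimates for Rpia and Shpk were -0.67 and -0.34. Pgd was also negative in 3 of 3 mice, and G6pdx was positive in 3 of 3. For this and the other counts of mice, the share of all genes with the same sign in 3 mice was not counted. The interaction test called 0 of the 9 with edgeR and with DESeq2, and none had an unadjusted p under 0.05. Of all genes edgeR called 0%, with 178 at an unadjusted p under 0.05, and DESeq2 called 20.

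No difference between the variants of GKRP was detected in the 9 transcripts. For GKRP-446L against GKRP-446P with GK, 0 of 9 passed for the human vectors (0% of all genes by edgeR, 255 at an unadjusted p under 0.05, 11 by DESeq2) and 0 of 9 for the mouse vectors (0.0164%). At endogenous GK 0 of 9 passed (0% of all genes by edgeR, 225 at an unadjusted p under 0.05, 20 by DESeq2), and DESeq2 called 0 of the 9 in all 3. At endogenous GK the 9 log2 fold changes lay between -0.09 and 0.01. With GK, Shpk was 0.29 (SE 0.26) higher with hL than with hP and 0.32 (SE 0.26) higher with mL than with mP, and Rpia 0.12 (SE 0.36) and 0.27 (SE 0.36). The intervals were wide, with a fold of Rpia between 0.648 and 1.82 for hL against hP.

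The 9 transcripts differed in where their spread lay. Of the variance of log2 CPM over the 30 samples, the mouse accounted for 83.3% in Taldo1, 80.7% in Pgd and 75.6% in G6pdx, and the condition for 5.65%, 12.6% and 5.18%. Rpia (50.9%) and Pgls (52.3%) lay between. In Tkt, Shpk, H6pd and Rpe the mouse accounted for 12.5% to 22.8% and the condition for 31.4% to 47.7%. With 10 conditions of 3 samples some share falls to the condition by sampling alone, so these shares are a description.

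**Figure D4:**
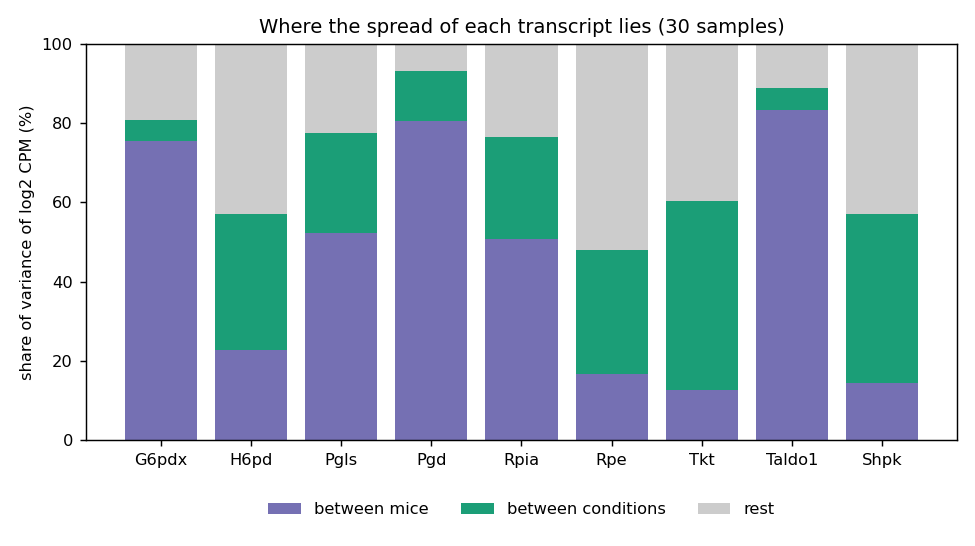
Share of the variance of log2 CPM over 30 samples that lay between the 3 mice, between the 10 conditions and in the rest, for each transcript. Taldo1, Pgd and G6pdx vary mostly between mice (75.6% to 83.3%), Tkt and Shpk more between conditions (47.7% and 42.9%).

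The mice were not ordered alike. G6pdx was highest in mouse 3, the only Gckr-446P/L animal, at 24.9 CPM on average beside 17.6 in mouse 1 and 15.3 in mouse 2. Its lowest value in mouse 3 (22.0 CPM) was below the highest of mouse 1 (22.3 CPM). Genotype and mouse cannot be told apart with 1 mouse of this genotype. Taldo1 averaged 149, 85.3 and 121 CPM in mice 1, 2 and 3 without any overlap between mouse 2 and the others. Pgd averaged 492, 369 and 366 CPM, with mouse 1 above both others in all 10 conditions.

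After the mean of each mouse was removed, Pgd, Tkt and Taldo1 varied together over the 30 samples, with a Pearson r of 0.73 for Pgd and Taldo1, 0.71 for Tkt and Taldo1 and 0.67 for Pgd and Tkt. Pgls joined Tkt (0.68) and Taldo1 (0.59). Rpia and Shpk formed a second pair at 0.59. G6pdx and Rpe followed no other member above 0.35. The points share libraries and are given as a description.

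**Figure D5:**
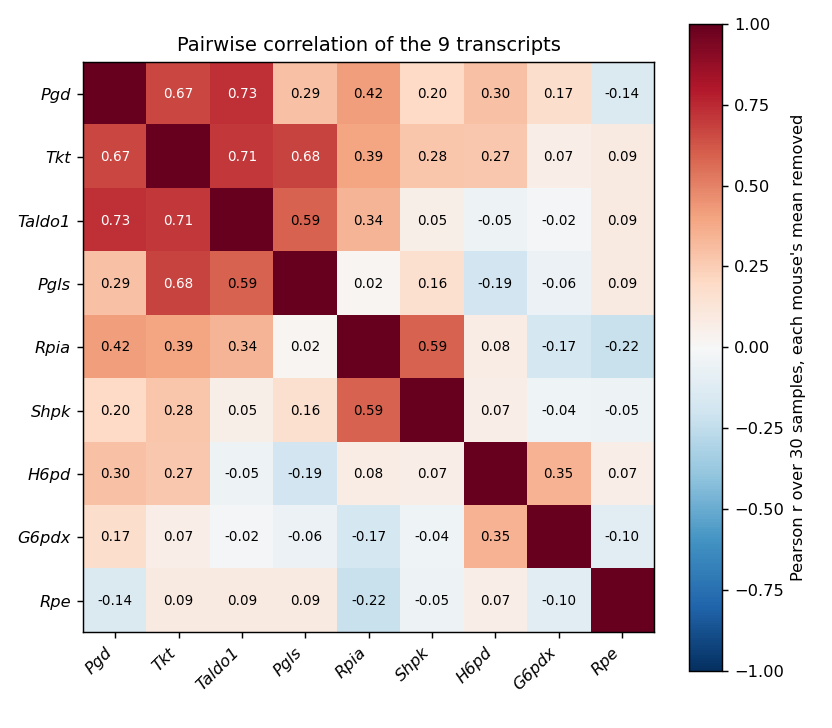
Pearson r between the log2 CPM of each pair of the 9 transcripts over 30 samples, with the mean of each mouse removed. Pgd, Tkt and Taldo1 form one block (0.67 to 0.73) and Rpia and Shpk another pair (0.59).

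By the same measure over 30 samples, the genes most like each member were F12, Aldh2 and Mvp for Tkt (0.92 to 0.88), Gpx1, Rpl8 and Plpp2 for Taldo1 (0.88 to 0.79), Trim41, Krt8 and Qsox1 for Pgd (0.82 to 0.81), and Tmem115, Atp5f1d and Psmd9 for Pgls (0.83 to 0.82). For H6pd they were Ndst1, Nid1 and Kdm5c (0.95 to 0.93). For Shpk they were Gys2, the glycogen synthase of liver, at 0.74, Ttc23 and Ddhd2, and those shown for Rpia were Glul at 0.65 and Pdhb at 0.63. For G6pdx they were Polr3b, Gm45457 and Csnk2a1 (0.63 to 0.60) and for Rpe Ccdc162, Rnf128 and Vdac3 (0.70 to 0.67).

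At the level of annotated transcripts, 1 coding transcript held most reads of G6pdx (G6pdx-201, 91.0%), H6pd (H6pd-202, 88.4%), Pgd (Pgd-201, 89.0%), Rpia (Rpia-201, 89.0%), Taldo1 (Taldo1-201, 91.2%) and Shpk (Shpk-201, 100%). Tkt was the exception. Tkt-209, annotated without a defined coding sequence, was assigned 80.0% of its reads and the longer coding Tkt-201 9.58%, with 72.9% to 83.3% for Tkt-209 across the 10 conditions. Rpe was split between the coding Rpe-201 (61.9%) and Rpe-205, annotated as a target of nonsense-mediated decay (28.0%). Pgls-205 took between 0% and 34.2% of the reads of Pgls in the 10 conditions, where Pgls had 71 to 314 reads per sample. Salmon assigns reads shared by overlapping transcripts by estimation, so these shares are uncertain where transcripts share most exons, whereas a sum over a gene does not depend on how its reads are split among its transcripts.

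Other lists of genes around the pathway place the members. Of 13 other enzymes of pentose and ribose metabolism, 10 were tested and 0 passed with GK against the 5 combined conditions, where the median log2 fold change was 0.04. With the mouse as a term 1 passed, Gpi1, the isomerase that opens the competing route of glucose 6-phosphate into glycolysis, at 0.57 (SE 0.07, adjusted p = 4.47e-06). The isoenzymes G6pd2, Tktl1 and Tktl2 had too few reads to be tested. Of 9 genes of fatty acid synthesis and its transcription factors, a large user of NADPH in liver, 3 were higher with GK in this comparison (Acaca, Acly and Fasn), with a median of 0.58, and 3 were lower with the 4 GKRP vectors and GK than with GK alone (Acaca, Acly and Elovl6), with a median of -0.40. With the mouse as a term these counts were 6 and 4, and 4 passed against untreated, where the model without it called 0. Acly, ATP citrate lyase, was at 1.18 (SE 0.18, adjusted p = 0.000361) with GK.

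Of 9 tested genes for other sources of NADPH, 0 passed with GK against the 5 combined conditions. Me1, malic enzyme, had 0.40 (SE 0.10, adjusted p = 0.0573), and passed with the mouse as a term. With the 4 GKRP vectors at endogenous GK, Idh2, the mitochondrial isocitrate dehydrogenase, was higher by 0.60 (SE 0.15, adjusted p = 0.0338) and Mthfd2 by 0.91 (SE 0.21, adjusted p = 0.0190). Idh2 was also higher with GKRP and GK than with GK alone, by 0.60 (SE 0.15), and the mouse term added Mthfd2 there (0.64, adjusted p = 0.00905). Of 12 genes of purine and pyrimidine synthesis, which use ribose 5-phosphate, 1 (Paics) was higher with GKRP and GK than with GK alone, at 0.39 (SE 0.10, adjusted p = 0.0493). Umps, of pyrimidine synthesis, passed there and with GKRP at endogenous GK once the mouse was a term (0.56 and 0.54). Of 14 S-phase genes 12 were higher with the 4 GKRP vectors in both settings. No member passed in either, where 1.89% (endogenous GK) and 1.61% (with GK) of all genes did.

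Of 13 genes of the glutathione, thioredoxin and Nrf2 group, several of which spend NADPH, 0 passed in any of the 4 main comparisons, with a median of 0.08 for GK against the 5 combined conditions. The mouse term added 1 call, Slc7a11, with GKRP at endogenous GK (0.44, adjusted p = 0.0492). Of the 3 genes whose products work beside H6pd in the endoplasmic reticulum, G6pc, the glucose 6-phosphatase catalytic subunit, was higher with GK by 3.17 (SE 0.55, adjusted p = 0.00217). Slc37a4, the glucose 6-phosphate transporter, passed only with the mouse as a term (1.08, adjusted p = 5.79e-06), and both passed as lower with GKRP and GK in that model. All 10 genes of a glucose-responsive list, G6pc among them, were higher with GK, with a median of 2.20, and 8 were lower with GKRP and GK. The study named that list from these samples, so its direction is not independent evidence.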

How the data were processed

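RNA of 36 hepatocyte cultures was measured by sequencing. The authors deposited for each culture the output of Salmon (version 1.4.0, Gencode M26, GRCm39): expected counts (estimated reads, not normalized) and TPM of 139225 transcripts. Of these, 137570 (98.8%) were paired with genes through Gencode M39, and their expected counts were summed per gene, rounded, and summed over cultures of 1 mouse and condition (chi-square per degree of freedom between such cultures 4.28 to 29.2). R 4.3.3 with edgeR 4.0.16 (filterByExpr, TMM, quasi-likelihood F test, Benjamini-Hochberg over 12177 genes) was the main test, without a mouse term, since none is named in the study's methods. DESeq2 1.42.0 was an alternative. The SE is the log2 fold change divided by the root of F. Same-numbered samples are the same animal by the labels, and their deviations correlated at 0.223 on average (82.2% of 135 pairs above 0.1), with -0.110 between mice. All samples come from 3 mice. The main test took the 30 samples as independent, with 26.7 degrees of freedom for GK against the 5 combined groups. Its p-values and intervals therefore do not measure the spread between 3 mice.

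The members and lists were chosen with earlier results of these data known. All 9 members are named, with at most 4 called members of a list. Gpi1, Me1, Umps, Slc7a11 and Slc37a4 and the untested isoenzymes were named after their values were seen. The TPM deposited by the authors served as an alternative for levels. Tests were checked on simulated data. Some results are not reported here.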

Additional observations from a re-analysis of the deposited data

Results flagged for a closer look

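In 2 of 18 sets of 6 cultures (9 transcripts, untreated and GK), 1 culture stood apart by Dixon's test at the 95% level, where chance flags about 1 in 20. H6pd was at 544.5 CPM in 1 GK culture of mouse 2 and at 657 to 720.3 CPM in the other 5. Rpe was at 28.4 CPM in 1 GK culture, also of mouse 2, and at 22.5 to 24.2 CPM in the other 5. Both values come from the same library, and the 6 cultures are pairs from 3 mice, so the 2 are not independent.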

How the results depend on the processing

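With the mouse as a replicate block 1 of 9 members passed for GK against the 5 combined groups, 2 did by DESeq2 with the block, and 1 with each culture as a sample. For GK against untreated 1 passed by DESeq2 with the block. The block changed no other call of a member. Of the 649 recomputed log2 fold changes, 28 turned direction, and the cause was not tested. With transcript lengths as an offset, GK against the 5 combined groups gave 0.029 (G6pdx), -0.065 (Pgls) and -0.062 (Rpe), GK against untreated -0.054 (H6pd), -0.042 (Pgls), -0.16 (Rpe) and -0.11 (Tkt), GKRP against untreated 0.10 (Taldo1), GK in the presence of GKRP -0.091 (Rpia), the interaction 0.30 (Tkt) and hL against hP -0.17 (Tkt). Without a filter on low counts G6pdx was at 0.0062 for GK (5 combined groups) and at -0.0059 for GKRP in the presence of GK. Without the GK culture with Gckr reads, chosen after seeing the data, these were 0.048 and -0.037. With each culture as a sample H6pd was at -0.0019 for GK against untreated. Leaving out 1 mouse spanned 0, for GK against the 5 combined groups, in G6pdx (-0.078 to 0.057) and Rpe (-0.0087 to 0.16), for GK against untreated in H6pd (-0.037 to 0.023) and Rpe (-0.035 to 0.12), for GKRP against untreated in Pgls (-0.18 to 0.10) and Rpe (-0.090 to 0.074), for GKRP with GK in G6pdx (-0.056 to 0.092), for the interaction in Tkt (-0.20 to 0.0041), for hL against hP in Rpia (-0.14 to 0.35), and for mL against mP in Tkt (-0.068 to 0.16) and Shpk (-0.057 to 0.69). By the deposited TPM the log2 ratio of GK to untreated moved to -0.84 for Tkt, 1.38 for Rpia, 1.37 for Shpk, 0.60 for Pgd and 0.25 for H6pd. TPM and the length offset both rest on the effective lengths of Salmon, which fell short of transcript length by a median of 153 to 852 bases between libraries (transcripts over 3000 bases). The part of this in these values was not tested. Rpia and Shpk rest on the fewest reads.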
